A study of Arabidopsis thaliana with 64 samples.

Results

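Of the 64 arrays of the study, 4 carried RNA from shoots of wild-type (WT, Col-0) Arabidopsis seedlings grown under red (R) light, 2 under phosphate (Pi) deficiency and 2 under Pi sufficiency. They were chosen by their labels for genotype, tissue, light and Pi supply, and all genes measured on them were followed. The labels give the seedlings as 3 weeks old, grown at 23°C with 16 h of light and 8 h of dark, whereas the methods of the study call the R treatment continuous. Pi-deficient and Pi-sufficient WT shoots of the same age under blue (B) light, with 2 arrays per group, stood in the same fit, so that 8 arrays set the spread between replicates. WT shoots under white light, 4 weeks old and labelled as leaf, came from the control plants of the *hy5-215* set and of the *35S:BBX32-SRDX* set, with 3 replicates per Pi level in each. No mutant or transgenic plant entered the R and B comparisons. In the white-light fits, the *hy5-215* or *35S:BBX32-SRDX* arrays of the set shared in setting the spread and the choice of genes. Each sample was shoot tissue of 1 accession, in which fewer cells of a type and less RNA per cell cannot be told apart. The methods call the replicates biological.

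Pi is taken up as the free anion and is needed for nucleic acids, membrane phospholipids and ATP. When it runs short, the MYB factor PHR1 is released from SPX-domain proteins and switches on a large set of phosphate starvation-induced (PSI) genes. Their products take up and move Pi, free it from organic esters and RNA, and replace phospholipids with galactolipids and sulfolipids. In leaves Pi shortage is also known for starch and anthocyanin accumulation, and light quality, read by phytochromes in R light and by cryptochromes and phototropins in B light, acts on many of the same tissues.

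On the R arrays, 54.0% to 61.0% of the spots were well above background, and the 75th percentile of the signal lay between 81.0 and 119 units, against 2430 to 7290 units on the white-light arrays. Weak signal over background and 2 arrays per group therefore limit the precision, and 2 arrays against 2 could not reach an exact two-sided permutation p below 0.333. Levels are log2 signals on a scale with the 75th percentile of an array at 0, and paired values are given for replicate 1 and then replicate 2. The median SD between replicates over genes was 0.152 in the Pi-deficient and 0.167 in the Pi-sufficient R shoots. Each replicate lay on 1 slide, and each group kept its place on both slides, so place and group cannot be told apart. All 5 leaf markers were well above background on the 4 R arrays. Of 10 root markers, *COBL9*, *EXPA7*, *EXPA18* and *PRP3* were above background on no R shoot array, and only *BGLU23* was so on all. The summed level of the root markers was 5.79 to 6.11 in Pi-deficient and 5.43 to 5.69 in Pi-sufficient R shoots, against 8.15 to 8.3 in R roots. In R shoots this sum was nearly all *BGLU23*, which had 5.41 to 6.09, against 7.56 to 7.68 in R roots. Every other root marker lay at or below -1.69 in R shoots. The part of root RNA in the results was not tested.

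Most genes called in R shoots were higher under Pi deficiency. Of 17160 genes tested with limma, 758 (4.42%) were called, which required an adjusted p (Benjamini-Hochberg) below 0.05 together with a ratio above 2 or below 0.5. Among them 655 (3.82%) were higher and 103 (0.600%) lower under Pi deficiency, whereas at an unadjusted p under 0.05 and any fold 2241 were higher and 2301 lower. More than 4-fold fitted changes numbered 319 higher and 10 lower, and more than 16-fold changes 66 higher and 0 lower. Without the fold limit 973 genes (5.67%) passed, 772 higher (4.50%) and 201 lower (1.17%). The median log2 fold change was 1.93 over the genes called higher, -1.29 over those called lower and -0.04 over all genes tested. In 0 called genes did the arrays of the Pi levels overlap, while both Pi-deficient arrays lay above both Pi-sufficient arrays in 4424 genes (25.8%) and below them in 5305 (30.9%), whether called or not. For 234 of the 655 genes no Pi-sufficient R array was well above background, so that their fitted change rests on signals at background and is not a measured size, and for those named a bound is given. With bounds in place of these fitted changes, where one could be had, the median over 632 genes called higher was 1.62, with 219 above 4-fold and 34 above 16-fold. Another limit is that 13 of the 758 calls were of genes with no R array well above background, which were tested through their signal in B shoots. Of 111 long non-coding RNAs tested, 5 were called higher and 4 lower. The count depended on single arrays. It was 266 without Pi-deficient replicate 1, 448 without Pi-sufficient replicate 1 and 266 without Pi-sufficient replicate 2, and 1002 without Pi-deficient replicate 2, which lay below replicate 1 in 471 of the 655 genes called higher.

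The 10 highest changes in R shoots included Pi-scavenging enzymes, SPX-PHR1 signalling components and genes without an annotated role. Their rank follows the fitted change, which for genes at background is not a measured size, and non-overlap between Pi levels was a condition of the choice. *PAP14*, a purple acid phosphatase gene, had 3.65 and 3.81 under Pi deficiency and -5.74 and -5.27 under Pi sufficiency, where neither array was well above background. It was at least 133-fold higher under Pi deficiency (adjusted p = 7.07e-05). *PS2* (AT1G73010), which encodes a pyrophosphatase of the HAD family, had 6.26 and 6.16 against -0.83 and -1.45, a log2 change of 7.35 (SE 0.35, adjusted p = 0.000315) measured on both sides. Replicates of both genes lay close together in the Pi-deficient shoots. *SPX3*, encoding an inhibitor of Pi signalling, had 3.23 and 2.87 against -5.78 and -4.46 and was at least 82.8-fold higher (adjusted p = 0.000467). *IPS1*, a non-coding RNA that sequesters the microRNA miR399, had 2.50 in both Pi-deficient replicates against -5.16 and -5.03, at least 56.4-fold higher (adjusted p = 0.000424). *RNS1*, a secreted ribonuclease, had 3.03 and 1.73 against -4.0 and -5.13, at least 52.1-fold higher (adjusted p = 0.00153). In all 3 genes the Pi-sufficient R arrays were at background, and *RNS1* had the wider gap between its Pi-deficient replicates.

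*MGD3* (listed as *MGDC*), a monogalactosyldiacylglycerol synthase that acts under Pi shortage, had 3.57 and 3.77 against -3.58 and -2.71, and 1 Pi-sufficient array was above background. It rose by 6.81 on the log2 scale (SE 0.36, adjusted p = 0.000424). The long non-coding RNA AT2G08820 had 4.37 and 4.96 against -2.91 and -5.24 and a log2 change of 8.74 (SE 0.77, adjusted p = 0.00247). Only 1 of its Pi-sufficient arrays was above background, so this size rests in part on a signal at background. AT3G43110 was at least 80.4-fold higher (adjusted p = 0.00426) and AT1G23110 at least 33.6-fold higher (adjusted p = 0.000315). Also among the 10 was *FMO1*, a flavin-dependent monooxygenase of systemic acquired resistance, with 2.99 and -0.40 against -5.69 and -5.34. It was at least 24.5-fold higher (adjusted p = 0.0115), but its Pi-deficient replicates lay far apart and the call was lost without either Pi-sufficient array (adjusted p up to 0.0706). *PAP14*, *SPX3*, *IPS1*, *PS2*, AT1G23110 and *MGD3* were called under all 17 alternative settings that gave a test.

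**Figure D1:**
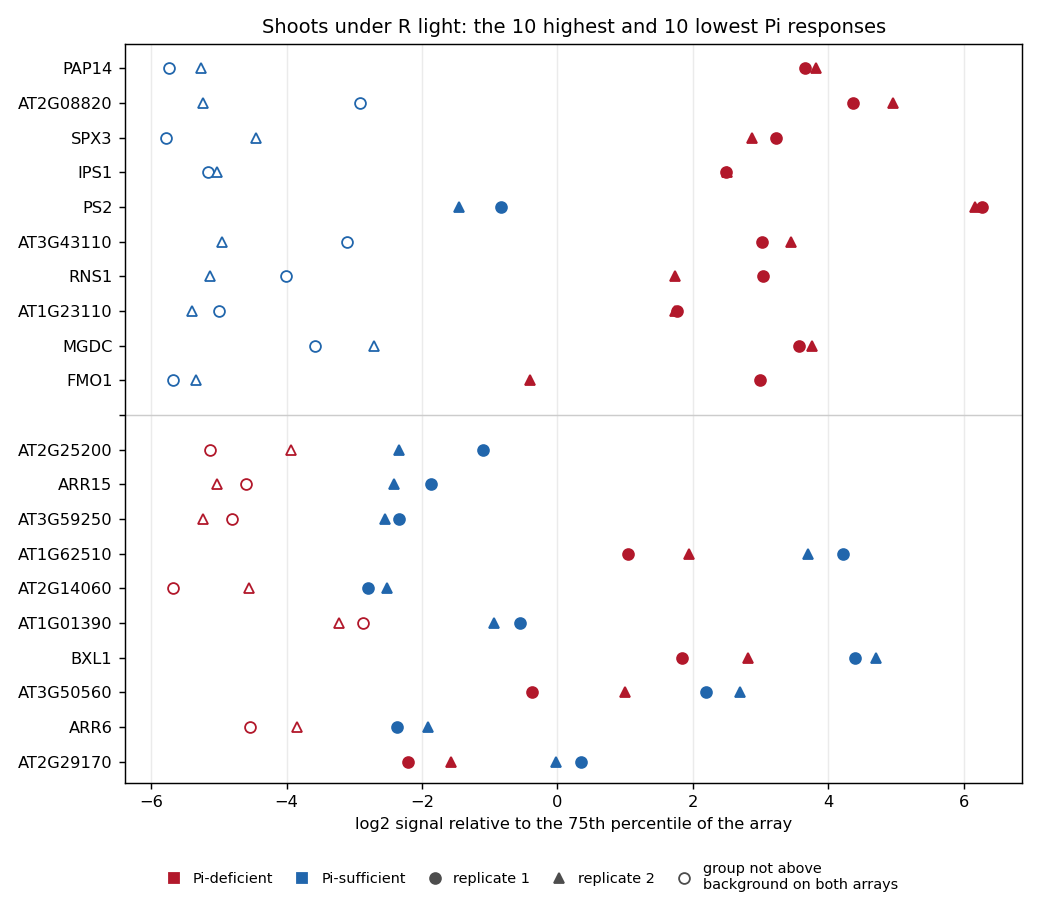
Levels of the 10 highest (top) and 10 lowest (bottom) genes on each R shoot array, as log2 signal relative to the 75th percentile of the array, with colour for the Pi level, symbol for the replicate and open symbols where a group was not above background on both arrays. Genes were chosen for colours that do not overlap, and *FMO1* has a wide gap between its Pi-deficient replicates (2.99 and -0.40).

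Among genes of Pi sensing and signalling, 8 of the 17 tested rose and 1 fell, beside 3.82% and 0.600% of all genes. The median log2 fold change was 1.09 beside -0.04 over all genes. *SPX1*, a Pi-dependent inhibitor of PHR1, had 3.74 and 3.48 under Pi deficiency and -0.85 and -0.55 under Pi sufficiency, a log2 change of 4.31 (SE 0.21, adjusted p = 0.000315). *AT4*, a non-coding relative of *IPS1*, had 8.11 and 7.5 against 3.29 and 1.92, a difference of 5.20 (SE 0.45, adjusted p = 0.00222). *SPX2*, which acts with *SPX1*, had 2.16 and 2.36 against 0.21 and 0.59, a difference of 1.86 (SE 0.20, adjusted p = 0.00517). The 3 genes kept their call without any 1 of the 8 arrays. AT5G15070 was at least 2.75-fold higher (adjusted p = 0.00585). *WRKY75*, a transcription factor gene known to be induced by Pi starvation, had -1.91 and -2.39 against -5.53 and -4.36 and was at least 2.26-fold higher (adjusted p = 0.0115, and 0.0755 without Pi-deficient replicate 1). *WRKY6*, which represses *PHO1*, rose by 1.09 on the log2 scale (SE 0.15, adjusted p = 0.0106), and this call was lost without Pi-deficient replicate 1 or either Pi-sufficient array (up to 0.0652). The remaining regulators named here did not pass the threshold. *PHR1*, the central regulator, had a log2 fold change of -0.25 (95% confidence interval -0.58 to 0.08, adjusted p = 0.309), and *PHO2*, the ubiquitin-conjugating enzyme targeted by miR399, had 1.09 (adjusted p = 0.0583, and 0.0254 without Pi-deficient replicate 2). *NLA*, a ubiquitin ligase that acts on Pi transporters, had -0.95 (adjusted p = 0.063). The fall was that of *SPX4*, with -3.50 and -3.15 at background against -2.35 and -1.58, at least 2.56-fold lower (adjusted p = 0.0478), which was lost when any array but Pi-sufficient replicate 1 was left out (up to 0.238). Without Pi-deficient replicate 1 the list counted 6 higher and 0 lower.

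Of the 21 genes of Pi transport tested, 7 were higher, beside 3.82% of all genes, and 0 lower, with a median of 0.53. *PHT1;1*, a high-affinity Pi importer of the plasma membrane, had 2.05 and 2.25 under Pi deficiency against -0.79 and -0.39, a log2 change of 2.74 (SE 0.19, adjusted p = 0.000949). *G3Pp1*, of the glycerol-3-phosphate permease family, had 0.30 and -0.02 against -2.72 and -2.14, a difference of 2.57 (SE 0.27, adjusted p = 0.00473). Both genes kept their call without any 1 array. *PHT1;4*, a related Pi importer, had 0.46 and 0.43 against -3.97 and -3.56 at background, at least 13.6-fold higher (adjusted p = 0.0226). *PHT1;5*, which moves Pi between source and sink organs, was at least 2.82-fold higher (adjusted p = 0.0178). *PHO1*, which exports Pi to the xylem, had -0.17 and -0.78 against -2.88 and -2.67, a difference of 2.29 (SE 0.38, adjusted p = 0.0219). Its homologue *PHO1;H1* rose by 2.0 (SE 0.33, adjusted p = 0.0212) and *PHF1*, which helps Pi importers leave the endoplasmic reticulum, by 1.91 (SE 0.34, adjusted p = 0.0266). These 5 calls were each lost without at least 1 R array, with adjusted p values of up to 0.114 for *PHT1;4*, 0.104 for *PHT1;5*, 0.123 for *PHO1*, 0.0969 for *PHO1;H1* and 0.133 for *PHF1*. The list counted 3 higher without Pi-deficient replicate 1 and 2 without either Pi-sufficient array. Another 8 members of the list, among them *PHT1;2*, *PHT1;3* and *PHT1;9*, were not tested because no group of shoots had them well above background on all its arrays.

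Genes for phosphatases and ribonucleases, which free Pi from organic compounds and RNA, had 14 of 30 tested higher and 0 lower. The median was 1.05, and 3.82% of all genes were called higher. *PECP1* (listed as *PEPC1*, AT1G17710), a phosphatase acting on phosphoethanolamine and phosphocholine, had 4.99 and 4.85 under Pi deficiency against -1.89 and -1.52, a log2 change of 6.62 (SE 0.33, adjusted p = 0.000315). *PAP5* was at least 32.5-fold higher (adjusted p = 0.00259), with 2.19 and 1.21 against -4.44 and -4.11. The purple acid phosphatase gene AT1G13750 had 3.22 and 3.09 against -1.23 and -0.76, a difference of 4.15 (SE 0.20, adjusted p = 0.000315). In each of these genes the lower Pi-deficient array lay more than 4-fold above the higher Pi-sufficient array. *ACP5* (*PAP17*), a widely used marker of Pi starvation, was well expressed at both Pi levels, with 5.19 and 5.27 against 1.59 and 1.87, a difference of 3.50 (SE 0.25, adjusted p = 0.00109). *PAP12*, a secreted acid phosphatase, had 3.48 and 3.37 against 1.04 and 1.34, a difference of 2.24 (SE 0.22, adjusted p = 0.00359). *PAP10*, bound to the root surface in seedlings, rose by 1.21 (SE 0.21, adjusted p = 0.0265), and this call was lost without any 1 of the R arrays (up to 0.125). *PAP24*, at least 3.89-fold higher (adjusted p = 0.0152), lost its call without Pi-deficient replicate 1 or either Pi-sufficient array (up to 0.0933). Members that did not change in this way were *RNS2*, an intracellular ribonuclease, with 0.90 (adjusted p = 0.0206) under the fold limit, and *PAP26*, a major acid phosphatase of the vacuole, with -0.18. The count was 9 without Pi-deficient replicate 1 or either Pi-sufficient array.

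The largest median among the Pi lists, 2.47, belonged to membrane lipid remodelling, in which 10 of 19 genes tested rose and 0 fell. The sulfolipid enzymes moved together. *SQD1* had 5.04 and 5.10 under Pi deficiency against 2.03 and 2.38 (2.86, SE 0.21, adjusted p = 0.00128), *SQD2* had 3.81 and 3.88 against 0.38 and 0.34 (3.49, SE 0.24, adjusted p = 0.00103), and *UGP3*, which supplies UDP-glucose to them in plastids, had 4.08 and 4.22 against 1.99 and 2.48 (1.91, SE 0.22, adjusted p = 0.00611). Their replicates lay close together at either Pi level, and the levels did not overlap. Among genes that break down phospholipids, *PLDZ2* (listed as *PLDP2*), a phospholipase D, had 2.32 and 2.45 against -2.80 and -2.70, a log2 change of 5.13 (SE 0.25, adjusted p = 0.000315). The glycerophosphodiester phosphodiesterase gene *GDPD1* (listed as *SRG3*) had 7.38 and 7.27 against 2.87 and 3.32 (4.23, SE 0.21, adjusted p = 0.000315), and its relative *GDPD6* was at least 8.07-fold higher (adjusted p = 0.00222). For *NPC4*, a phospholipase C, -1.65 and -3.39 stood against -4.89 and -5.24, with an adjusted p of 0.0509, which became 0.0168 with the replicate block and 0.0126 without Pi-deficient replicate 2. Of the galactolipid synthases, *MGD2* rose by 4.15 (SE 0.28, adjusted p = 0.000933), with 2.24 and 2.34 against -1.95 and -1.77, and *MGD1*, the housekeeping enzyme of chloroplasts, had -0.15 (adjusted p = 0.57). *DGD1* rose by 1.25 (SE 0.22, adjusted p = 0.0274), a call lost without any 1 of the R arrays (up to 0.15). Over the 4 Pi lists together, 39 of 87 genes tested were called higher and 1 lower, with a median of 1.25, and the count of higher genes was 27 without Pi-deficient replicate 1 or either Pi-sufficient array. With normexp background correction 28 were called higher with a median of 0.31, and an ANOVA called 17. Over all genes tested, 3.82% were called higher. The 4 lists hold genes known for induction by Pi starvation.

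**Figure D2:**
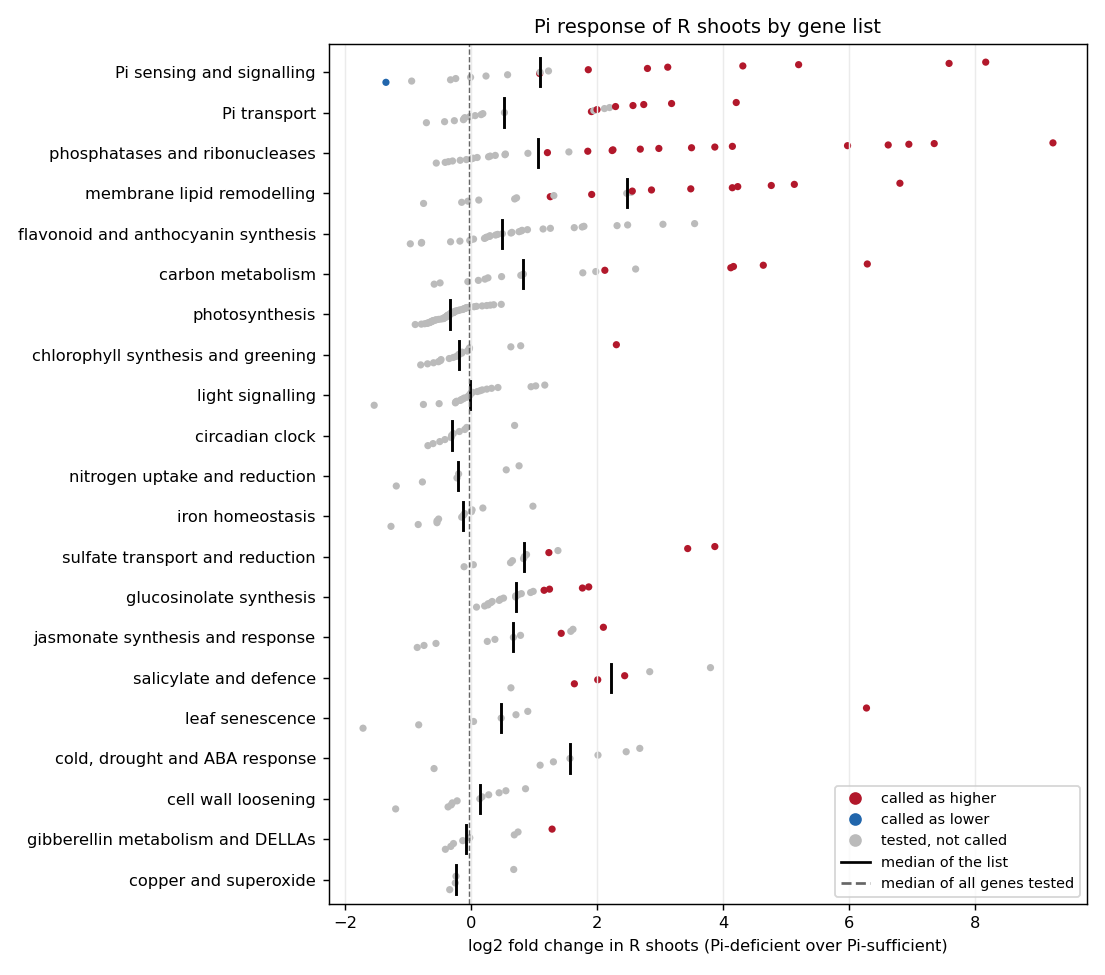
Log2 fold change under Pi deficiency in R shoots for every tested member of each gene list (horizontal axis), with 1 point per gene, red where called higher, blue where called lower and grey otherwise, a bar at the median of the list and a dashed line at the median of all genes. Points of the Pi lists lie mostly to the right of 0 with a median of 2.47 for lipid remodelling, whereas the photosynthesis genes lie close to 0 with a median of -0.34 and none called.

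Genes of starch and carbon metabolism had 5 of 17 tested higher, beside 3.82% of all genes, and 0 lower, with a median of 0.83. *GPT2*, a glucose-6-phosphate carrier of plastids, had 2.98 and 0.48 under Pi deficiency against -3.86 and -5.26 at background, at least 33.1-fold higher (adjusted p = 0.00875). *PPCK1*, which activates phosphoenolpyruvate carboxylase by phosphorylation, had 2.02 and 1.71 against -2.03 and -2.49, a log2 change of 4.12 (SE 0.34, adjusted p = 0.00187). Its paralogue *PPCK2* was at least 6.71-fold higher (adjusted p = 0.0114). The target enzyme *PPC1* had 4.19 and 4.16 against 1.95 and 2.15, a difference of 2.12 (SE 0.18, adjusted p = 0.00222), so the carboxylase and both its kinases rose. *BAM5*, a beta-amylase, rose by 4.64 (SE 0.74, adjusted p = 0.019), and *APL3*, a subunit of the starch-building enzyme ADP-glucose pyrophosphorylase, had 2.61 (adjusted p = 0.0575, 0.0280 with the replicate block, and as low as 0.0378 when single arrays were left out). Calls were lost for *GPT2* without Pi-sufficient replicate 2 (0.0593), for *BAM5* without Pi-deficient replicate 1 or Pi-sufficient replicate 2 (up to 0.108) and for *PPCK2* without replicate 1 of either Pi level (up to 0.0751). The count was 3 without Pi-deficient replicate 1 or Pi-sufficient replicate 2.

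Some members of the sulfate and glucosinolate lists were called higher. Of 11 genes tested in the sulfate transport and reduction list, 3 were higher and 0 lower (median 0.84). Among 19 glucosinolate genes 4 were higher and 0 lower (median 0.70, above 0 in 19 of 19). Over all 17160 genes tested, 3.82% were called higher and 7972 had a change above 0. What the listed transporters carry was not measured. *SULTR3;4*, of the sulfate transporter family, had 1.02 and 0.36 under Pi deficiency against -3.02 and -2.46, a log2 change of 3.44 (SE 0.39, adjusted p = 0.00581), which held without any 1 array. *SULTR1;3*, a high-affinity sulfate transporter of the phloem, had -1.37 and -1.75 against -5.59 and -5.26 at background, at least 3.4-fold higher (adjusted p = 0.00903, lost without 3 of the R arrays with up to 0.0617). *APR1*, which reduces activated sulfate, rose by 1.23 (SE 0.25, adjusted p = 0.0404, lost without any of 6 arrays with up to 0.206). In the indolic branch of glucosinolate synthesis, *CYP79B2* had 4.12 and 3.02 against 2.12 and 1.49 (1.77, SE 0.36, adjusted p = 0.0411), *CYP83B1* had 2.22 and 1.74 against 0.41 and -0.18 (1.87, SE 0.27, adjusted p = 0.0139), and their regulator *MYB51* rose by 1.24 (SE 0.24, adjusted p = 0.0365). *MAM3* (listed as *IMS2*), which elongates methionine for the aliphatic branch, rose by 1.16 (SE 0.24, adjusted p = 0.0391). None of these 4 calls held throughout. That of *MAM3* was lost whichever array was left out, and that of *CYP79B2* without any array but Pi-deficient replicate 2. Adjusted p reached 0.177 for *CYP79B2*, 0.085 for *CYP83B1*, 0.158 for *MYB51* and 0.166 for *MAM3* when single arrays were left out, the count was 0 without Pi-deficient replicate 1 or Pi-sufficient replicate 2, and the sulfate count was 1 without either of those arrays.

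In the jasmonate list, 2 of 11 genes rose (median 0.67), beside 3.82% of all genes. *AOC1*, an allene oxide cyclase of jasmonate synthesis, had 3.57 and 4.19 under Pi deficiency against 1.86 and 1.70, a log2 change of 2.1 (SE 0.25, adjusted p = 0.00702, and 0.0531 without Pi-sufficient replicate 2). *JAZ1*, a repressor of jasmonate signalling, rose by 1.43 (SE 0.28, adjusted p = 0.0364), a call lost without any array but Pi-sufficient replicate 1 (up to 0.185). *PDF1.2*, a plant defensin gene, had 0.02 and 4.83 under Pi deficiency and 5.30 and 1.04 under Pi sufficiency, so its replicates crossed (-0.75, adjusted p = 0.832). The list counted 0 without Pi-sufficient replicate 2 and 1 without any other array but Pi-sufficient replicate 1. In the salicylate list, 3 of 6 genes rose (median 2.22). *PR5*, a thaumatin-like pathogenesis-related gene, had 0.51 and -0.09 against -1.70 and -1.89 (2.01, SE 0.26, adjusted p = 0.00939, and 0.0674 without Pi-sufficient replicate 2). *WRKY70*, a regulator of salicylate responses, had 3.27 and 2.93 against 1.23 and 0.10 (2.44, SE 0.48, adjusted p = 0.0372), and *ICS1* (listed as *EDS16*), the isochorismate synthase that makes salicylate, had 1.79 and 0.69 against -0.48 and -0.32 (1.64, SE 0.35, adjusted p = 0.045). Their calls were lost without several arrays, with up to 0.185 for *WRKY70* and 0.153 for *ICS1*. In all 6 salicylate genes Pi-deficient replicate 1 lay above replicate 2, most widely in *PR1* (0.33 and -2.44 against -2.83 and -4.95, adjusted p = 0.173) and *PR2* (listed as *BGL2*; 2.26 and -0.32 against -2.54 and -3.12, adjusted p = 0.071, and 0.0102 with the replicate block). The count was 4 with the block, 1 without Pi-deficient replicate 1 or either B Pi-deficient array, and 0 without Pi-sufficient replicate 2. Of 7 senescence genes, *SAG13*, a short-chain dehydrogenase gene of senescing leaves, rose, with 1.96 and 2.16 against -3.49 and -4.94, at least 40.8-fold (adjusted p = 0.00183), and kept its call without any 1 array.

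The anthocyanin list and a list of cold, drought and abscisic acid response (the cold list) held 0 calls, with wide gaps between replicates. Of 31 flavonoid and anthocyanin genes tested with limma, 0 were called (10 higher and 1 lower at an unadjusted p under 0.05), with a median of 0.49. An ANOVA with the variance of each gene alone also called 0. The methods give such a test for growth data, but here its p was adjusted over all genes and the fold limit was kept. Their median SD was 0.52 between the Pi-deficient and 0.16 between the Pi-sufficient replicates. *DFR*, the dihydroflavonol reductase, had 1.6 and -2.23 under Pi deficiency against -2.36 and -5.38 (3.55, SE 1.36, adjusted p = 0.158). *MYB75*, an activator of the pathway, had 0.47 and -2.09 against -3.01 and -3.24 (2.32, adjusted p = 0.165). Replicate 1 was thus far above replicate 2, while both lay above the Pi-sufficient arrays. Its paralogue *MYB90* had -0.40 and -3.06 against -4.68 and -4.87 (3.04, adjusted p = 0.065), and was called with the replicate block (0.0377) or without Pi-deficient replicate 2 (0.00352). *TT19* (listed as *GSTF12*), which carries anthocyanins to the vacuole, had 1.64 and -1.52 against -1.10 and -2.31, where the groups overlapped. *CHS*, the chalcone synthase at the entry of the pathway, differed little between replicates, with 0.61 and 0.68 against -0.04 and -0.29 (0.81, adjusted p = 0.0944). The list counted 2 higher with the block, and 4 higher and 3 lower without Pi-deficient replicate 2. The 7 genes of the cold list had a median of 1.57, and 0 were called (2 higher and 1 lower unadjusted, 0 by the ANOVA). Their median SD was 0.64 between the Pi-deficient and 1.05 between the Pi-sufficient replicates. *COR15B*, a chloroplast protein gene of cold acclimation, had 3.39 and 2.17 against 0.93 and -0.73 (2.68, SE 0.68, adjusted p = 0.0682, and 0.0145 with the block). Pi-deficient replicate 1 lay above replicate 2 in 7 of 7 genes of the cold list. The block gave 3 cold calls, and leaving out Pi-sufficient replicate 1 gave 1.

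No photosynthesis gene passed the threshold in R shoots. All 52 were tested and 0 were called (limma, 0 higher and 18 lower at an unadjusted p under 0.05, 0 by the ANOVA), and their log2 fold changes ran from -0.89 to 0.48 with a median of -0.34, below 0 in 45. The median was -0.03 with quantile normalization. Leaving out Pi-deficient replicate 2 gave 1 lower. *LHCB2.2*, a light-harvesting protein of photosystem II with near-identical copies, had 9.66 and 9.46 under Pi deficiency against 9.23 and 9.55 (0.17, 95% confidence interval -0.30 to 0.65). *LHCA3*, of the photosystem I antenna, had 7.42 and 7.52 against 7.60 and 7.48 (-0.07, 95% confidence interval -0.43 to 0.29), so both genes overlapped between Pi levels. Most of the list did not overlap. Over the 52 genes, both Pi-deficient arrays lay below both Pi-sufficient arrays in 33 and above them in 2. Over all genes tested this held for 30.9% and 25.8%. The summed level of the 5 leaf markers was 10.6 to 10.7 under Pi deficiency and 11.1 to 11.3 under Pi sufficiency. Of these, *CA1*, a carbonic anhydrase, had 7.25 and 7.87 against 8.68 and 8.73 (-1.15, SE 0.22, adjusted p = 0.0328), a call lost without any array but Pi-deficient replicate 2 (up to 0.136).

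In the chlorophyll list, 1 of 20 genes rose, beside 3.82% of all genes, and 0 fell, with a median of -0.20. It was *PORA*, a protochlorophyllide oxidoreductase best known from etiolated seedlings, in which it accumulates in darkness and declines in light. It had 0.63 and 0.70 in Pi-deficient and -1.86 and -1.42 in Pi-sufficient R shoots, 4.94-fold higher (log2 fold change 2.31, SE 0.21, adjusted p = 0.00252), and kept its call without any 1 array. *PORB*, the form that persists in green leaves, had 5.97 and 5.90 against 5.19 and 5.11, a difference of 0.79 (SE 0.17, adjusted p = 0.0485) below the fold limit.

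Most remaining lists held no call. In limma 0 genes were called among 26 of light signalling (2 higher and 2 lower at an unadjusted p under 0.05), 11 of the clock (0 and 2), 6 of nitrate uptake and assimilation (1 and 2), 12 of the iron response (0 and 1), 4 of the copper response (1 and 0) and 11 of cell wall loosening (2 and 0), and the ANOVA called 0 in each. Their medians were -0.03, -0.31, -0.21, -0.14, -0.25 and 0.14. The replicate block and leaving out any 1 array gave at most 1 call in any of these lists. Of 8 gibberellin genes tested, 1 rose, beside 3.82% of all genes. It was *GA2OX6*, a gibberellin-inactivating oxidase, with -0.76 and -0.72 against -2.20 and -1.84 (1.28, SE 0.21, adjusted p = 0.0194). Its groups did not overlap, but the call was lost without any 1 of the R arrays (up to 0.099).

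The 10 largest falls in R shoots included cytokinin signalling genes. *ARR15*, a cytokinin-induced response regulator, had -4.60 and -5.03 at background under Pi deficiency against -1.87 and -2.42, at least 2.52-fold lower (adjusted p = 0.00863). Another type-A response regulator, *ARR6*, had -4.54 and -3.85 against -2.37 and -1.91, also at least 2.52-fold lower (adjusted p = 0.01, and 0.0669 without Pi-sufficient replicate 2). For both genes the Pi-deficient arrays were not well above background. *BXL1*, a beta-xylosidase of the cell wall, had 1.84 and 2.81 against 4.40 and 4.70, a log2 change of -2.23 (SE 0.46, adjusted p = 0.0412, lost without any of 5 arrays with up to 0.204). AT1G62510 had 1.04 and 1.94 against 4.22 and 3.70 (-2.47, SE 0.32, adjusted p = 0.00939, and 0.0521 without Pi-sufficient replicate 1), and AT1G01390 had -2.88 and -3.23 against -0.55 and -0.94 (-2.31, SE 0.22, adjusted p = 0.00319). Replicates of each differed by less than 1 on the log2 scale, and only 1 Pi-deficient array of AT1G01390 was above background. AT3G59250 was at least 2.04-fold lower (adjusted p = 0.0016), and together with *ARR15* and AT1G01390 it kept its call without any 1 array. The remaining 4 of the 10 were less stable. AT2G25200 was at least 3.38-fold lower (adjusted p = 0.0364, up to 0.174) and AT2G14060 at least 1.77-fold lower (adjusted p = 0.0329, up to 0.149). AT3G50560 had a log2 change of -2.13 (SE 0.42, adjusted p = 0.0375, up to 0.167) and AT2G29170 of -2.05 (SE 0.44, adjusted p = 0.0454, up to 0.231), where the upper values are those without single arrays.

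Most genes called in R shoots were called in the same direction in B shoots, which were measured on other arrays. Both contrasts used the same estimate of the spread for each gene, so their calls are not independent. B shoots had 3459 calls (20.2%), 1980 higher (11.5%) and 1479 lower (8.62%), and 651 genes were shared, which is 85.9% of the R and 18.8% of the B calls. The share of the B calls that were higher was 57.2%, and 84.9% in the authors' table, in which the median of all genes was 0.32 in B shoots. Of the 651 shared genes, 580 were higher and 71 lower, and 495 had the larger fitted change in B shoots. The genes of the 4 Pi lists had a median of 1.25 in R and 1.49 in B shoots, with 48 higher and 4 lower in B shoots and 39 higher and 1 lower in R shoots. In B shoots *PAP14* was at least 75.2-fold higher and *SAG13* at least 280.0-fold, and AT2G08820 had a log2 fold change of 4.85. Across the genes tested, the changes in R and B shoots had a Spearman rho of 0.645, over genes that are not independent and arrays that shared slides. Of the 10 genes with the largest falls in R shoots, 8 were called lower in B shoots as well. Among these 8, *ARR15*, AT3G59250 and *ARR6* were well above background on no B array, so nothing is read from their calls there. The others were not called in B shoots. Of these, AT2G29170 had -0.89, and AT2G25200 was well above background on no B array, so nothing is read from it there either.

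**Figure D3:**
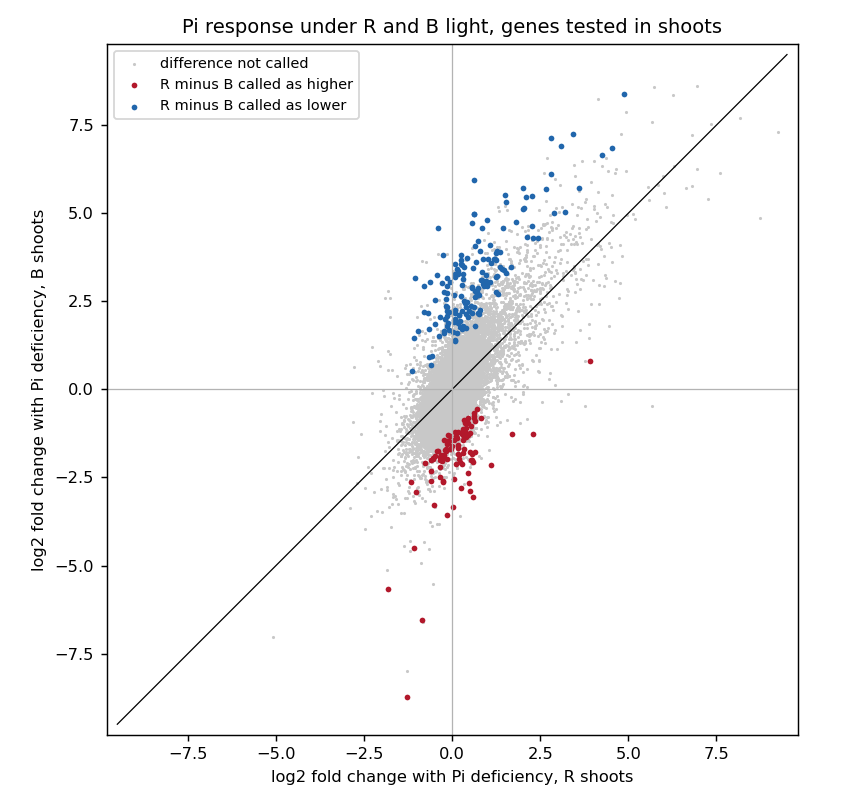
Log2 fold change under Pi deficiency in R shoots (horizontal axis) and in B shoots (vertical axis), 1 point per gene tested, with a diagonal of equal change and colour for the 253 genes whose difference was called, 95 with R above B in red and 158 with R below B in blue. Many coloured points lie near 0 on the R axis and far from 0 on the B axis.

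The difference between the R and B responses was itself tested, as the light by Pi contrast of the same fit. It was called for 253 of 17160 genes (1.47%), 95 with a higher (0.554%) and 158 with a lower (0.921%) response in R shoots. In 198 of the 253 the response was called in B shoots and not in R shoots, 119 of them higher and 79 lower in B shoots. Another 35 rose at both lights and less under R light. The number was unstable, being 0 without B Pi-deficient replicate 1 (2704 at an unadjusted p under 0.05) or R Pi-sufficient replicate 1 (3297), 1 without B Pi-deficient replicate 2, 11 without B Pi-sufficient replicate 1, 41 without B Pi-sufficient replicate 2, 20 without R Pi-deficient replicate 2, 80 without R Pi-sufficient replicate 2 and 287 without R Pi-deficient replicate 1. In the authors' table of processed values, in which all genes had a median difference of -0.48, 1045 were called and 4.4% of them were higher in R shoots, against 37.5% here. The ANOVA called 0 (2851 unadjusted). In 12 of the 24 genes named for such a difference, 1 or more of the 4 groups had no array well above background, so the difference there includes signals at background and neither its size nor its rank is a measured one. When single arrays were left out, the calls of the differing responses named here were lost far more often than kept, and none was kept throughout.

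Opposite calls were made for 3 genes. *PORA*, which rose in R shoots, was well above background on no B array, with -5.59 and -5.38 under Pi deficiency and -4.05 and -4.38 under Pi sufficiency, so no fold is given for B shoots. Its light by Pi difference was 3.57 (adjusted p = 0.0174). *RL3*, a small MYB-related gene of the *RADIALIS* family, had 1.63 and 1.48 under Pi deficiency against 0.03 and -0.34 in R shoots (1.71, SE 0.24, adjusted p = 0.0121, lost without Pi-deficient replicate 1 or Pi-sufficient replicate 2 with up to 0.0802), and -0.99 and -0.58 against 0.73 and 0.24 in B shoots (-1.27). The difference was 2.98 (adjusted p = 0.0222). *IAA29*, an auxin-response repressor, was at least 1.89-fold higher in R shoots (adjusted p = 0.0358, lost without any of 6 arrays with up to 0.129), with -2.57 and -2.23 against -3.58 and -3.45, and fell by 2.14 on the log2 scale in B shoots, with -2.76 and -2.95 against -0.47 and -0.97. Its difference was 3.25 (adjusted p = 0.0188). For *RL3* and *IAA29* no array of a Pi level overlapped with the other at either light, and the directions were opposite.

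Photosynthesis and cell wall genes were among those whose responses differed between R and B shoots. All 52 photosynthesis genes had lower values under Pi deficiency in B shoots (median -1.34, 46 called lower, beside 8.62% of all genes). All 52 had a difference above 0 between R and B responses (median 1.0), as had 8673 of all 17160 genes. In the list 5 differences were called, all higher, beside 0.554% called higher over all genes. *LHCB2.2* had 8.40 and 7.99 under Pi deficiency against 9.8 and 9.76 in B shoots, where its R arrays overlapped, a difference between the responses of 1.76 (adjusted p = 0.0439, 0.0571 with the replicate block). *LHCA3* had 6.30 and 6.04 against 7.82 and 7.86 in B shoots, a difference of 1.61 (adjusted p = 0.0335, 0.0419 with the block). The others were *LHCB6* with 1.4, *PSAF* with 1.18 and *PSAO* with 1.31, proteins of the light-harvesting antenna and of photosystem I, all 3 not called with the block (0.0589, 0.0571 and 0.0589). The size of this split depended on scaling. With quantile normalization the median in B shoots was -0.70 with 10 called, the difference was above 0 in 49 of 52 and 1 was called, and in the authors' table it was above 0 in 46 with 1 called. With normexp it was above 0 in all 52 with 17 called. When single arrays were left out, at most 1 gene of the list was called. Among expansins, which loosen cell walls, *EXPA8* had 0.89 and 0.42 against 0.18 and 0.23 in R shoots (0.44, adjusted p = 0.35) and -2.42 and -1.67 against 0.33 and 0.34 in B shoots (-2.38). The difference of *EXPA8* was 2.82 (adjusted p = 0.0335, 0.0455 with the block), that of *EXPA1* 1.54 and that of *EXPA11* 1.51, the last 2 not called with the block (0.0596 and 0.0571). *GA3OX1*, a gibberellin-activating oxidase, had -0.28 in R shoots and was at least 2.85-fold lower in B shoots, a difference of 1.75 (adjusted p = 0.0446, 0.0506 with the block).

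The 5 highest light by Pi differences included a pair of loci of the iron list. AT2G30766 had 2.74 and 1.1 against 3.45 and 2.94 in R shoots, and -5.88 and -3.11 against 4.14 and 4.33 in B shoots. The log2 fold change was -1.27 in R and -8.73 in B shoots, and the difference 7.45 (adjusted p = 0.0457, 0.0648 with the block). AT1G47400 had -0.15 and -2.30 against -0.33 and -0.43 in R shoots, where the groups overlapped, and was at least 29.3-fold lower in B shoots, a difference of 5.69 (adjusted p = 0.0439, 0.0621 with the block). At both loci the R shoots kept signal under Pi deficiency, while the B Pi-deficient shoots were at or near background. In the white-light sets AT2G30766 had -7.07 and -7.93 and AT1G47400 had -6.75 and -8.81, all called lower. AT1G11740 had -1.41 and -0.06 against 0.95 and 1.25 in R shoots (-1.83, adjusted p = 0.0685, and 0.041 with the block) and was at least 29.1-fold lower in B shoots, a difference of 3.83 (adjusted p = 0.0489). AT1G29420, a small auxin-up RNA gene (*SAUR61*), was well above background on 1 R array and at least 3.98-fold lower in B shoots, a difference of 3.65 (adjusted p = 0.0324).

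The 5 lowest differences were all of genes that rose in B shoots, of which only *GSTU3* was also called in R shoots. AT5G39520 had -0.69 and -1.86 against -1.42 and -2.36 in R shoots and 1.63 and 2.23 against -3.31 and -4.69 in B shoots, where it was at least 20.8-fold higher, a difference of -5.32 (adjusted p = 0.0399). *GLYI7*, a member of the glyoxalase family, had -0.96 and -0.66 against 0.23 and -1.04 in R shoots and 2.27 and 3.25 against -1.73 and -1.91 in B shoots, a difference of -4.98 (adjusted p = 0.033). For these 2 genes the R arrays of the Pi levels overlapped. *CCD8*, a carotenoid cleavage enzyme of strigolactone synthesis, was well above background on no R array and at least 6.93-fold higher in B shoots, with 0.25 and 0.44 against -4.45 and -4.83 (difference -4.38, adjusted p = 0.0188). AT1G62760 had -2.70 and -2.60 against -3.15 and -3.40 in R shoots and was at least 9.34-fold higher in B shoots (difference -4.36, adjusted p = 0.0127). *GSTU3*, a tau-class glutathione transferase, rose at both lights, at least 2.05-fold in R (adjusted p = 0.0312, lost without any of 6 arrays with up to 0.135) and at least 31.1-fold in B shoots (difference -4.31, adjusted p = 0.0486, 0.0656 with the block).

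Of the gene lists, 3 more members had a lower response in R shoots. *PAP8*, a purple acid phosphatase gene, had -0.22 and -1.36 against -0.36 and -0.62 in R shoots (-0.30, adjusted p = 0.671) and a log2 fold change of 3.02 in B shoots (difference -3.31, adjusted p = 0.0439). *MYB113*, an anthocyanin regulator, was well above background on no R array and at least 1.515-fold higher in B shoots (difference -2.73, adjusted p = 0.0222). *WRKY75*, called at both lights, was at least 18.1-fold higher in B shoots (difference -3.30, adjusted p = 0.0445, 0.0532 with the block). The jasmonate list had 2 of 11 genes higher in R and 9 of 11 in B shoots, beside 3.82% and 11.5% of all genes. The medians of the list were 0.67 and 2.70. Its median difference was -2.06 and below 0 in 11 of 11 genes, but 0 differences were called (limma, 0 higher and 6 lower at an unadjusted p under 0.05, 0 by the ANOVA, 1 with the replicate block, 5 in the authors' table and 2 with normexp). *JAZ1* had a log2 fold change of 1.43 in R and 3.49 in B shoots.

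**Figure D4:**
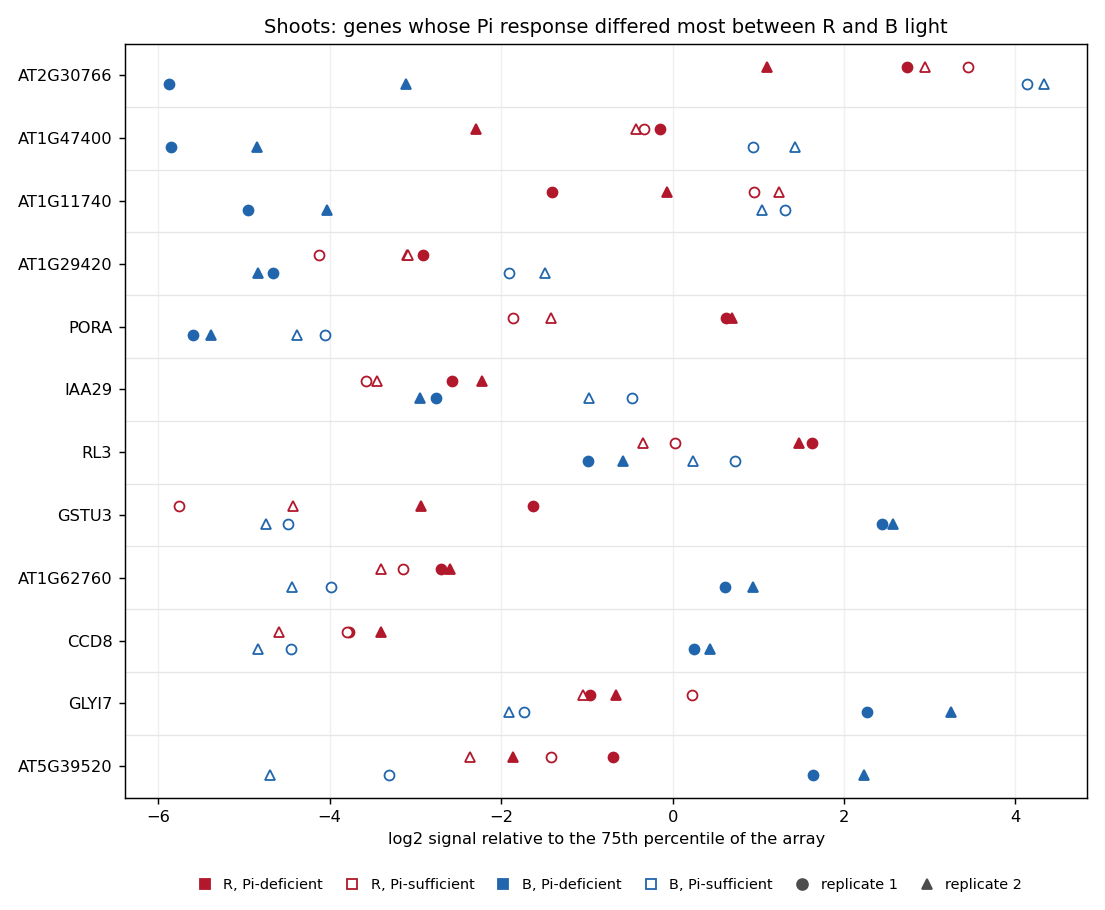
Levels of 12 genes in R and B shoots at both Pi levels, as log2 signal relative to the 75th percentile of the array, with red for R, blue for B, filled symbols for Pi deficiency and open symbols for Pi sufficiency, 1 symbol per replicate. For *RL3* the filled symbols lie right of the open ones in R shoots and left of them in B shoots, and for *CCD8* and *GLYI7* the R symbols stay together while the filled B symbols lie far to the right.

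White-light WT shoots gave a side-by-side reading from other arrays with stronger signal. The *hy5-215* set had 1589 calls of 21421 genes (7.42%), 1247 of them higher (5.82%), and the *35S:BBX32-SRDX* set 1654 of 21409 (7.73%), 1454 of them higher (6.79%). Of the 758 R calls, 400 were called in the same direction in the former (52.8% of the R calls and 34.2% of those of the set among genes tested in R shoots), 493 in the latter (65.0% and 39.6%), and 0 in the opposite direction in either. In all 4 WT shoot comparisons 313 genes were called alike, 306 higher and 7 lower. Another 55 were called in R shoots and in none of the 3 others in that direction, 32 higher and 23 lower, and the light by Pi difference was called for 3 of these. The 4 Pi lists had medians of 2.12 and 1.98 in the white-light sets, with 46 and 47 genes called higher, beside 1.25 with 39 in R shoots. For anthocyanin genes the white-light sets had 19 and 15 of the list called higher (medians 1.83 and 1.38), beside 0 (0.49) in R shoots. The photosynthesis medians were -0.41 and -0.13 beside -0.34 in R shoots, and those of the iron list -0.86 and -0.93 beside -0.14 in R and -0.78 in B shoots. *RL3* was called higher in both sets (2.04 and 1.05), as in R shoots. Sets were normalized separately, plant age differed, and no difference between R and white light was tested.

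**Figure D5:**
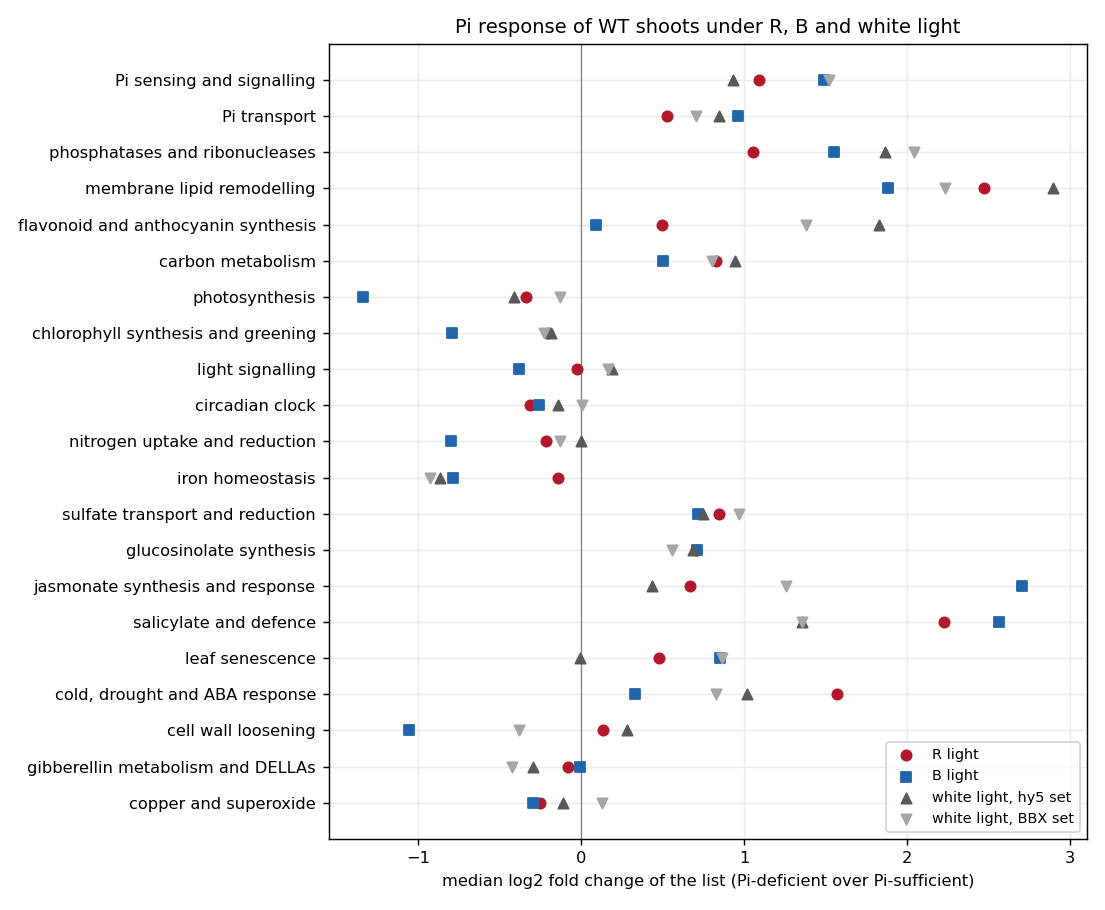
Median log2 fold change under Pi deficiency of each gene list in R, B and white-light WT shoots, 1 marker per comparison. All markers of the Pi lists lie right of 0, while for photosynthesis the B marker alone lies far to the left (-1.34 against -0.34 in R shoots) and for jasmonate far to the right (2.70 against 0.67).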

How the data were processed

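Cy3-labelled RNA of WT (Col-0) shoots was measured on Agilent arrays of 1 colour. The authors deposited scanner output whose processed signal is an intensity, background-subtracted and spatially detrended by Feature Extraction (9.1.3.1 in the submitters' processing notes, 11.5.1.1 per the file headers) and not normalized between arrays. A table of processed values, also deposited, was found to be on the natural log scale. Processed signals were taken here as log2 minus the 75th percentile of each array. Of 43603 probes, 36163 (82.9%) were matched by accession to 26716 genes of the RefSeq annotation, and the brightest of several probes was used. A gene was tested if at least 1 of the 4 shoot groups had its probe well above background throughout. The 8 shoot arrays were fitted by group with limma 3.58.1 in R 4.3.3 (the white-light sets apart, 12 arrays each), and the Benjamini-Hochberg adjustment ran over every gene in the contrast. All adjusted p values are two-sided limma values. A fold written as at least N-fold compares the mean of the brighter group with the level of detection in the other. Outlier spots, 3 to 11 on each R array and 5 to 17 on each B array, were dropped. This left 6 genes tested without a value on 1 or more of the 8 arrays.

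Genes were named as the 10 highest and 10 lowest called changes without overlap, the 5 highest and 5 lowest light by Pi differences, opposite calls, and leading or well-known members of 21 gene lists. Members and lists were chosen with earlier results of these data known. Alternatives were quantile normalization, scaling to the median of detected probes, the authors' table, normexp with an offset of 50 on the median spot signal, no filter for dimness, averaging probes, the replicate number as a block, other thresholds, an ANOVA with Fisher's LSD comparison (given in the methods for growth data), the arrays of 1 light only and leaving out each array in turn, where a lone array was assumed to vary like the other groups. ANOVA calls used the same limits on adjusted p and fold as the limma calls. Arrays of the same replicate number shared a slide, and the correlations of their deviations from the group means ran from 0.0723 (Pi-deficient and Pi-sufficient R shoots) to 0.28.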

Additional observations from a re-analysis of the deposited data

Results flagged for a closer look

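What set the following results apart was a test of the difference between the Pi responses of R and B shoots, the light by Pi contrast, which was called for 253 genes. Values are log2 differences, R response minus B response. A higher response in R shoots was called for AT2G30766 (7.45), AT1G47400 (5.69), AT1G11740 (3.83), AT1G29420 (3.65), *PORA* (3.57), *IAA29* (3.25), *RL3* (2.98), *EXPA8* (2.82), *LHCB2.2* (1.76), *GA3OX1* (1.75), *LHCA3* (1.61), *EXPA1* (1.54), *EXPA11* (1.51), *LHCB6* (1.4), *PSAO* (1.31) and *PSAF* (1.18). A lower response was called for AT5G39520 (-5.32), *GLYI7* (-4.98), *CCD8* (-4.38), AT1G62760 (-4.36), *GSTU3* (-4.31), *PAP8* (-3.31), *WRKY75* (-3.30) and *MYB113* (-2.73). When single arrays were left out, these calls were lost far more often than kept, and none was kept throughout. In *PORA* the B arrays, and in *CCD8* and *MYB113* the R arrays, were at background throughout, so that their differences rest on a change measured at 1 light. At least 1 group was at background in AT1G47400, AT1G11740, AT1G29420, *IAA29*, *GA3OX1*, AT5G39520, AT1G62760, *GSTU3* and *WRKY75* as well, and 1 of 2 B Pi-deficient arrays in AT2G30766, so these differences are fitted values and not measured sizes.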

How the results depend on the processing

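The number of genes called in R shoots (758) was 317 with normexp, 384 without the filter on dim probes, 71 by the ANOVA, 458 with only the R arrays and 1343 with the fold limit and an unadjusted p, and ran from 266 to 1002 when single arrays were left out. With the replicate block it was 988, and the lower calls went from 103 to 160. R Pi-deficient and Pi-sufficient arrays of 1 number deviated together only weakly, so the numbers were not taken to pair the samples, and the block called *PHT3;2* (0.0434) besides the genes named with it above, ended 11 of the 24 named light by Pi calls and ended no named call in R shoots (753 of the 758 genes shared). In B shoots the count (3459) was 1364 with normexp, 7831 without the filter (25.2% higher) and 6294 without the fold limit. Light by Pi calls (253) numbered 384 with quantile normalization, 1045 in the authors' table, 403 with normexp, 0 without the filter (6927 unadjusted), 0 by the ANOVA, 1630 with the fold limit and an unadjusted p, and 0 to 287 when single arrays were left out. The white-light counts (1589 and 1654) were 2228 and 2067 with the block. Over 108 named genes, the R change stayed on its side of the threshold in 691 of 864 values without single arrays and in 808 of 972 under other tested settings, lost the call in 157 and 143, gained it in 10 and 14 and changed sign in 6 and 7, and in 6 of 216 within slides, where no test was made. Of 74 called genes, 17 were called under every setting that gave a test. Signs changed with quantile normalization for *PSAO* (0.21), *LHCB6* (0.18), *PSAF* (0.19), *LHCA3* (0.21) and *MGD1* (0.085), and with normexp for *PSAF* (0.00013) and *LHCA3* (0.036). When single arrays were left out, *MYB113* ran from -0.38 to 0.015, *PDF1.2* from -3.16 to 1.66 (1.38 without R Pi-sufficient replicate 1), AT1G47400 from -1.92 to 0.23, *PAP8* from -0.87 to 0.27 and *LHCB6* from -0.30 to 0.068. Within slide 1 they changed for *LHCB6* (0.081), AT1G47400 (0.18) and *PAP8* (0.14), and within slide 2 for *LHCA3* (0.035), *LHCB2.2* (-0.090) and *PDF1.2* (3.79). The cause was not tested. Signal over background was low on these arrays, and 234 fitted rises are not measured sizes.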

Other observations

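Among the 55 genes called in R shoots and in none of the other WT shoot comparisons, chosen after their values were seen, the largest change was that of *LEA7* (AT1G52690), a late embryogenesis abundant protein gene of the group linked to desiccation. It had -0.38 and 0.80 in Pi-deficient R shoots against -5.53 and -5.38 at background in Pi-sufficient R shoots, at least 11.5-fold higher (adjusted p = 0.0104 from limma, and up to 0.0687 without either Pi-sufficient array). In B shoots *LEA7* had -3.67 and -5.88 under Pi deficiency and -3.69 and -4.92 under Pi sufficiency, and its light by Pi difference of 6.13 had an adjusted p of 0.0512.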
